A study of Canis lupus familiaris with 4 samples.

Results

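The genes described here encode enzymes that write or erase histone marks and proteins that move nucleosomes. They were taken by name from 2 tables of DNA regions enriched by a methyl-binding capture. A gene was a member if its symbol was KMT, KDM, HDAC, SIRT, PRMT, KAT or CHD followed by a number, if it began with SMARC, SETD or ARID, or if it was EZH1, EZH2, EED, SUZ12, EP300 or CREBBP. The rule found 101 genes, of 21789 genes named in the tables and of 14273 with a gene symbol. Their regions numbered 662 of 123421 in CLBL-1 8.0 and 361 of 82247 in CLBL-1. CLBL-1 8.0 is a doxorubicin-resistant form of CLBL-1, kept in medium with 8 µM doxorubicin. CLBL-1, a dog line of diffuse large B-cell lymphoma taken from a lymph node and not chemoresistant, served as its control and was grown without the drug. Both are cultures of the same line, so each comparison sets 1 resistant culture beside 1 parental culture. In MethylCap-seq, a methyl-binding domain protein pulls methylated DNA fragments out of the genome and the captured DNA is sequenced. Each line gave 1 low salt and 1 high salt eluate, labelled low and medium to high methylation, and the tables hold 1 list per line with the eluates not told apart. No comparison therefore has a replicate or a test. Positions are on CanFam3.1, as the tables give them.

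Histone lysine methyltransferases (KMT, SETD and EZH genes) and arginine methyltransferases (PRMT) add methyl groups, and lysine demethylases (KDM) take them off. Lysine acetyltransferases (KAT, EP300, CREBBP) acetylate histones, a mark of open chromatin, and histone deacetylases (HDAC) and sirtuins (SIRT) remove it. CHD and SMARC proteins include the ATPases and partner subunits of nucleosome remodelling complexes, and several ARID proteins are subunits of the SWI/SNF complex. In human B-cell lymphoma, KMT2D, CREBBP, EP300 and EZH2 are recurrent mutation targets. DNA methylation at a promoter in a CpG island often goes with a silent gene, whereas methylation in the body of a gene is common in genes that are transcribed. Expression was not measured here. Depth per library is unknown, and a region missing from a list is not evidence of unmethylated DNA.

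Most members held captured DNA in both lines. Regions were listed for 100 members in CLBL-1 8.0 and for 83 in CLBL-1. Of 108 symbols in the dog RefSeq annotation that the rule takes, 100 had a region in either list. The 8 with none were CHD1L, HDAC8, KAT2B, KMT5A, PRMT5, SETD6, SMARCE1 and SUZ12. The remaining listed gene, KDM4D, had no such symbol in that annotation. The typical member had more regions in CLBL-1 8.0, with a median of 5 regions per gene against 2 in CLBL-1. The other genes with a symbol had a median of 3 in CLBL-1 8.0 and 2 in CLBL-1.

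More regions were listed in CLBL-1 8.0 for 82 of the 101 members, or 81.2% (95% Wilson interval 72.5 to 87.6). Over all genes with a symbol this share was 65.2%. Fewer were listed for 8 members, or 7.92% (4.07 to 14.9), beside 9.14% over all genes. The 8 were HDAC4, KDM4B and, with 1 region fewer each, ARID3C, HDAC10, KDM6B, KMT2E, SMARCAD1 and SMARCD2. Equal numbers were found for 11 members and for 3658 other genes, of 14273 genes with a symbol in all. The higher share of members with more regions thus went mostly with fewer ties. The covered length was greater in CLBL-1 8.0 in 80 members and smaller in 21. No share over all genes stands beside this count, so it is not read as a trait of the members. The ratio of region numbers, CLBL-1 8.0 over CLBL-1, was 1.83 for the members and 1.55 for the other genes. Region numbers were not divided by gene length, so a long gene has more room for regions in either line. Intervals here cover counting error only. The CLBL-1 8.0 list is the longer one, and when it was cut by fold to the length of the CLBL-1 list, members kept 384 regions in CLBL-1 8.0, beside 361 in CLBL-1.

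The surplus lay inside the genes and away from CpG islands. Gene body regions (introns, coding exons and untranslated parts, without promoter flag) numbered 573 in CLBL-1 8.0 and 298 in CLBL-1, a ratio of 1.92, against 1.62 for other genes. Intron regions numbered 409 in CLBL-1 8.0 and 184 in CLBL-1, a ratio of 2.22 against 1.72 for other genes. Coding exon regions numbered 141 in CLBL-1 8.0 and 91 in CLBL-1, a ratio of 1.55 against 1.38 for other genes. Regions of the 3' untranslated part were few, with 18 in CLBL-1 8.0 and 20 in CLBL-1. Their ratio was 0.9 against 1.26 for other genes. The authors' class can shift with a region's edge. Of 316 CLBL-1 8.0 regions that met exactly 1 CLBL-1 region of the same gene, 29 carried another class there.

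By CpG context, members had 457 regions outside islands and shores in CLBL-1 8.0 and 169 in CLBL-1, a ratio of 2.70 against 2.14 for other genes. A shore is the stretch that flanks a CpG island. In islands they had 46 regions in CLBL-1 8.0 and 48 in CLBL-1, and in shores 159 in CLBL-1 8.0, against 144 in CLBL-1. The ratio for islands was 0.958 among members and 1.10 among other genes. It rested on HDAC4, without which members had 30 island regions in CLBL-1 8.0 and 26 in CLBL-1, a ratio of 1.15. Introns outside islands and shores held 313 regions in CLBL-1 8.0 and 90 in CLBL-1, a ratio of 3.48 against 2.33 for other genes. The share outside islands and shores was 69.0% (65.4 to 72.4) in CLBL-1 8.0, against 46.8% (41.7 to 52.0) in CLBL-1. Among other genes it was 61.6% in CLBL-1 8.0 and 44.5% in CLBL-1.

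Coding exons took a larger share of member regions than of the regions of other genes in both lines, and promoters a smaller one. Coding exons took 21.3% of member regions (18.4 to 24.6) in CLBL-1 8.0, against 25.2% (21.0 to 29.9) in CLBL-1. Other genes had 11.9% in CLBL-1 8.0 and 13.4% in CLBL-1. Promoters took 5.59% of member regions (4.08 to 7.61) in CLBL-1 8.0, against 6.93% (4.73 to 10.0) in CLBL-1. The shares of other genes were 11.3% in CLBL-1 8.0, against 14.1% in CLBL-1. The enhancer flag was carried by 28 member regions (4.23%) in CLBL-1 8.0, against 15 (4.16%) in CLBL-1. For other genes, CLBL-1 8.0 had a share of 5.43% and CLBL-1 one of 5.52%. A flag for a transcription start was on 8 member regions (1.21%) in CLBL-1 8.0, against 9 (2.49%) in CLBL-1. With other genes, CLBL-1 8.0 had a share of 3.95% and CLBL-1 one of 6.21%. The number of regions with a start flag was thus slightly lower in CLBL-1 8.0 for both, with ratios of 0.889 for members and 0.986 for other genes.

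**Figure D1:**
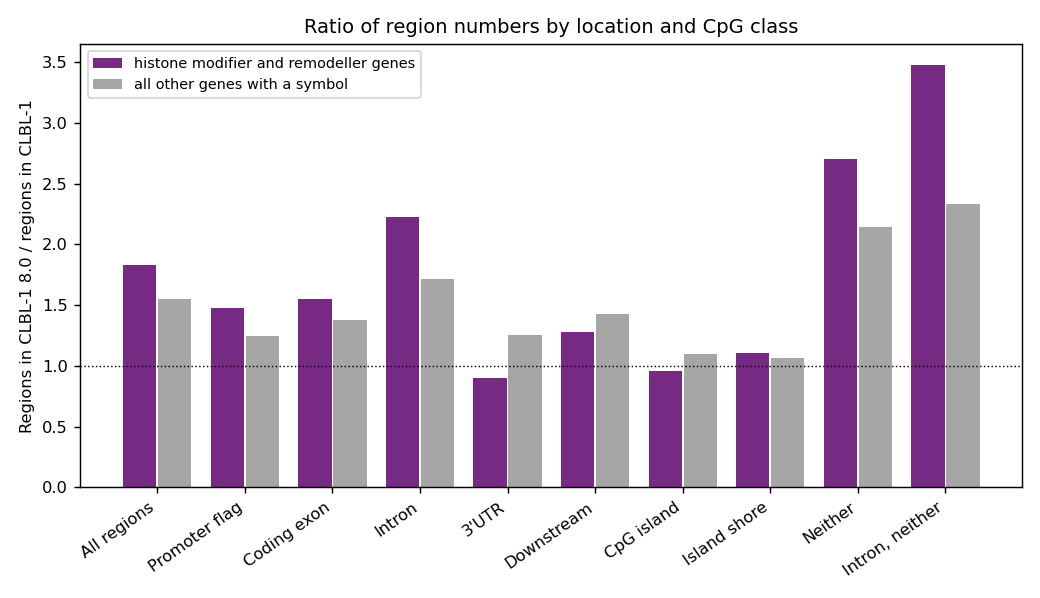
Bars give the number of regions in CLBL-1 8.0 divided by the number in CLBL-1 for each location and CpG class, for the histone modifier and remodeller genes and for all other genes with a symbol. Introns outside islands and shores have the highest bar of the members shown, 3.48 against 2.33, and island regions stay near 1.

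Most member regions of the parental line were also listed in the resistant line. At an overlap of at least 1 bp, 322 of the CLBL-1 8.0 member regions, 48.6% (44.9 to 52.4), met a CLBL-1 region. Of the CLBL-1 member regions, 320, or 88.6% (85.0 to 91.5), met a CLBL-1 8.0 region. For other genes the shares were 59.5% in CLBL-1 8.0, against 90.9% in CLBL-1. The 340 regions of CLBL-1 8.0 alone were short, with a median of 326.5 bp against 534.5 bp for the shared ones. They lay outside islands and shores in 304 cases, or 89.4%, and in introns in 244, or 71.8%. The regions of other genes in CLBL-1 8.0 alone were much the same, with a median of 315 bp, 87.8% outside islands and shores and 72.9% in introns. They were spread over 90 members. CLBL-1 had 41 regions alone, in 17 members, of which 24 belonged to HDAC4 and KDM4B. Of these 41, 14 lay in islands, 17 in shores and 10 in neither. With lists of equal length, the share met was 44.0% in CLBL-1 8.0, against 48.2% in CLBL-1.

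Fold enrichment is the authors' ratio for each region and orders regions within a list only. Its median over member regions was 4.75 (interquartile range 3.46 to 6.15) in CLBL-1 8.0, where the whole list had 5.06. In CLBL-1 the median over member regions was 5.09 (3.41 to 7.98), where the whole list had 5.95. Other genes had medians of 4.92 in CLBL-1 8.0 and 5.75 in CLBL-1. Members and other genes thus both stood below the middle of either list, members further below. Nearly all regions of HDAC4 and KDM4B, the 2 members with the most regions, had folds under the list medians. The region numbers by family and CpG class are plotted next.

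**Figure D2:**
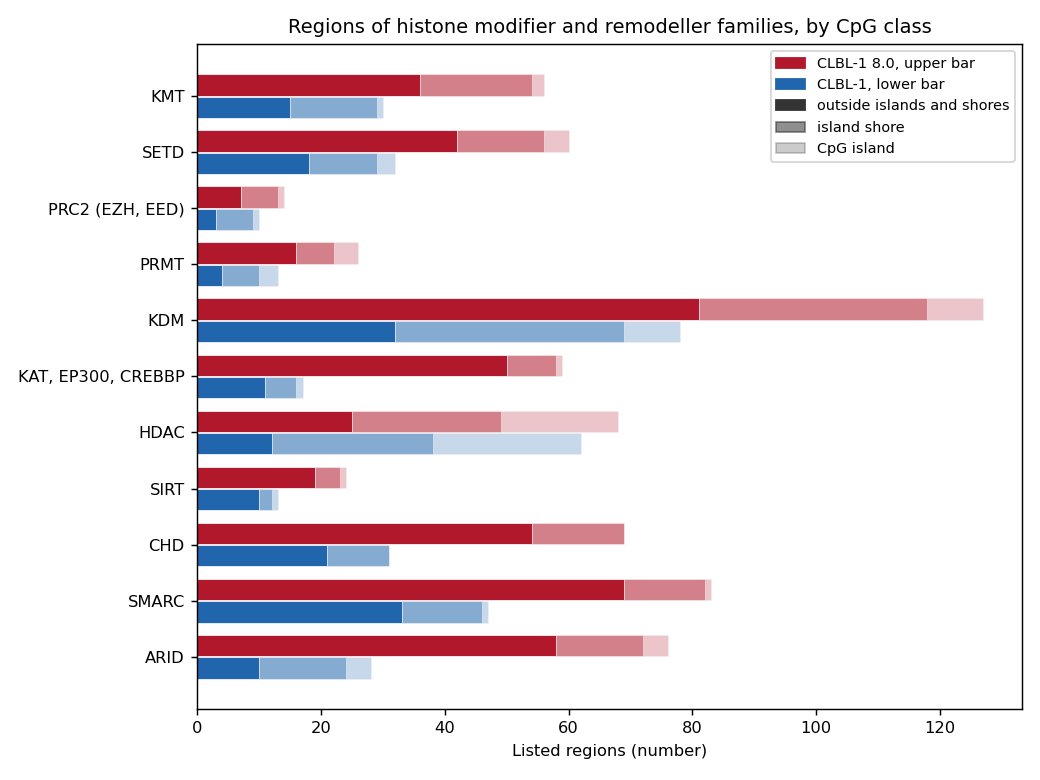
Stacked bars give the number of listed regions per gene family, with CLBL-1 8.0 as the upper bar and CLBL-1 as the lower one, split into regions outside islands and shores, in shores and in islands. All 11 families have the longer bar in CLBL-1 8.0, HDAC with the lowest ratio (68 regions in CLBL-1 8.0 and 62 in CLBL-1) and KDM with the most regions (127 in CLBL-1 8.0 and 78 in CLBL-1).

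Among the lysine methyltransferases, the KMT genes had 56 regions in CLBL-1 8.0 and 30 in CLBL-1. Much of this was coding sequence, with 24 coding exon regions in CLBL-1 8.0 and 18 in CLBL-1. KMT2A, which methylates histone H3 and is the MLL gene of human leukaemia translocations, had 17 regions in CLBL-1 8.0 and 7 in CLBL-1. All 7 were met, and 10 of the 17 stood in CLBL-1 8.0 alone. The stretch within 1 Mb on either side of KMT2A had a similar ratio, 2.24 against 2.43 for the gene. KMT2C, a methyltransferase of the same family, had 12 regions in CLBL-1 8.0 and 4 in CLBL-1.

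KMT2D, which deposits histone H3 methylation at enhancers, had most of its regions at the same places in both lines. It had 9 regions in CLBL-1 8.0, of which 7 lay in coding exons, and 6 in CLBL-1, all in coding exons. In shores lay 7 of the 9 in CLBL-1 8.0 and 5 of the 6 in CLBL-1. No CLBL-1 region of KMT2D was without a counterpart. A single CLBL-1 region of the gene on chromosome 27 (5535436 to 5536716) met 2 shorter CLBL-1 8.0 regions, so part of its higher number was a region listed in pieces. Covered length was 5061 bp in CLBL-1 8.0 and 4669 bp in CLBL-1. KMT5B, which methylates histone H4, had 8 regions in CLBL-1 8.0 and 4 in CLBL-1.

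SETD genes had 60 regions in CLBL-1 8.0 and 32 in CLBL-1. SETD2, the methyltransferase that marks histone H3 in transcribed gene bodies, had 6 regions in CLBL-1 8.0 and 2 in CLBL-1, all outside islands and shores. SETD1B had 8 regions in each line, mostly in coding exons (7 in CLBL-1 8.0 and 6 in CLBL-1). SETD7 had 8 in CLBL-1 8.0 and 7 in CLBL-1. SETD3, which methylates actin, had 14 in CLBL-1 8.0 and 6 in CLBL-1, and SETDB1, which methylates histone H3 in silent chromatin, had 6 in CLBL-1 8.0 and 5 in CLBL-1. Without SETD3, the gene with the most regions in the family, the ratio of the SETD genes was 1.77 against 1.88 with it.

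The Polycomb repressive complex genes had few regions apart from EZH2, its catalytic subunit. EZH2 had 10 regions in CLBL-1 8.0 and 9 in CLBL-1, and none carried the promoter flag in either line. Its region of highest fold began 3805 bp upstream of the gene start in CLBL-1 8.0 (chromosome 16, 1922638 to 1923345, fold 9.23). In CLBL-1 that region ran from 1922695 to 1923246 with a fold of 15.9. The other EZH2 regions lay in the gene or past its end in both lines. EZH1 had 1 intron region in each line. EED, the subunit that binds the methylated histone tail, had 3 regions in CLBL-1 8.0 and none in CLBL-1, and SUZ12 had none in either.

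Arginine methyltransferases had 26 regions in CLBL-1 8.0 and 13 in CLBL-1. PRMT2 held 10 of them in CLBL-1 8.0 and 8 in CLBL-1. Without it the family had 16 in CLBL-1 8.0 and 5 in CLBL-1. PRMT3, known for methylating a ribosomal protein, had 6 regions in CLBL-1 8.0 and none in CLBL-1, with folds of 6.01 to 8.55 that all exceeded the median of the CLBL-1 8.0 list. PRMT7 had 5 in CLBL-1 8.0 and 2 in CLBL-1. PRMT6 had 1 in each line that did not meet, a promoter region in CLBL-1 8.0 and a coding exon region in CLBL-1.

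KDM genes carried the most regions of any family, 127 in CLBL-1 8.0 and 78 in CLBL-1, and KDM4B alone had 33 in CLBL-1 8.0 and 38 in CLBL-1. Without KDM4B the ratio of the family was 2.35 against 1.63 with it. KDM4C, which like KDM4B demethylates histone H3, had 15 regions in CLBL-1 8.0 and 7 in CLBL-1. Its 7 CLBL-1 regions were all met and had folds of 11.9 to 17.8, well above the median of that list. KDM2B, a demethylase that binds unmethylated CpG islands, had 13 regions in CLBL-1 8.0 and 5 in CLBL-1. Its relative KDM2A had 8 in CLBL-1 8.0 and 4 in CLBL-1. KDM6A, an X-linked demethylase that opposes EZH2, had a single intron region in CLBL-1 8.0 (chromosome X, 38800998 to 38801275, fold 5.06) and none in CLBL-1. KDM6B, of the same kind, had 2 regions in CLBL-1 8.0 and 3 in CLBL-1.

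KDM4B stood out for fewer regions in the resistant line. Its 33 regions in CLBL-1 8.0 covered 17992 bp, and its 38 in CLBL-1 covered 21806 bp (chromosome 20, 54709808 to 54845704). In CLBL-1 alone were 9 of its regions, with folds of 2.37 to 3.90, and in CLBL-1 8.0 alone were 4. None of its regions in CLBL-1 8.0 and 2 in CLBL-1 reached the median fold of their own list. The surrounding 1 Mb on either side had 442 regions in CLBL-1 8.0 and 392 in CLBL-1, so more regions were listed around the gene in CLBL-1 8.0. Only 42 genes with a symbol, or 0.294%, had a difference as low as that of KDM4B.

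The acetyltransferases had the highest family ratio, 3.47, with 59 regions in CLBL-1 8.0 and 17 in CLBL-1. All 17 CLBL-1 regions were met. CREBBP, the acetyltransferase coactivator, had 22 regions in CLBL-1 8.0, against 6 in CLBL-1, the largest surplus (CLBL-1 8.0 minus CLBL-1) of any member. Its 15 regions of CLBL-1 8.0 alone all lay outside islands and shores, 12 of them in introns, with folds of 2.31 to 8.77. The gene's ratio was 3.67, and that of the 1 Mb on either side was 1.65 (377 regions in CLBL-1 8.0 and 228 in CLBL-1). A surplus of at least 16 regions was seen in 95 genes with a symbol, or 0.666%.

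EP300, the close relative of CREBBP, had 8 regions in CLBL-1 8.0 and 2 in CLBL-1, a ratio of 4 beside 1.79 in its surroundings. KAT6B, a MYST family acetyltransferase, had 13 in CLBL-1 8.0 and 3 in CLBL-1, a ratio of 4.33 beside 2.30. Without CREBBP the family ratio was 3.36, so it did not rest on that gene. No KAT6B region lay in an island or shore in either line.

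Deacetylases had 68 regions in CLBL-1 8.0, against 62 in CLBL-1, the lowest family ratio at 1.10. Their share outside islands and shores, 36.8% in CLBL-1 8.0 and 19.4% in CLBL-1, was the lowest of all families in both lines. HDAC4, a class IIa deacetylase that shuttles between nucleus and cytoplasm, had 27 of these regions in CLBL-1 8.0 and 36 in CLBL-1, and without it the family ratio was 1.58. It held 16 of the family's 19 island regions in CLBL-1 8.0 and 22 of its 24 in CLBL-1. The other HDAC4 regions lay in shores (11 in CLBL-1 8.0 and 13 in CLBL-1), with 1 exception in CLBL-1. The low share outside islands and shores therefore rested on HDAC4. Without it, the family had 41 regions in CLBL-1 8.0, 25 of them outside islands and shores, and 26 in CLBL-1. Its share was then no longer the lowest in either line, as the Polycomb genes had 50% in CLBL-1 8.0 and 30% in CLBL-1.

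HDAC4 had the largest deficit of any member, on chromosome 25 from 49314443 to 49546895 in CLBL-1. Only 10 genes with a symbol, or 0.0701%, had a difference as low. Its regions covered 18202 bp in CLBL-1 8.0 and 28706 bp in CLBL-1. In CLBL-1 alone were 15 regions, all in introns, of which 10 were in islands, 4 in shores and 1 in neither. Their folds, 2.01 to 2.80, sat near the lowest fold in either list. The highest fold of any HDAC4 region was 3.61 in CLBL-1 8.0 and 4.33 in CLBL-1, and no HDAC4 region in either line reached the median of its list. The part of this low fold in the different numbers was not tested. The 1 Mb on either side had 391 regions in CLBL-1 8.0, against 375 in CLBL-1.

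The other deacetylases mostly had a few regions more in CLBL-1 8.0. HDAC7 had 10 in CLBL-1 8.0 and 7 in CLBL-1, HDAC5 had 7 in CLBL-1 8.0 and 5 in CLBL-1, and HDAC1, a class I enzyme of several corepressor complexes, had 6 in CLBL-1 8.0 and 1 in CLBL-1. HDAC2, the paralog of HDAC1, had 4 in CLBL-1 8.0 and 2 in CLBL-1. HDAC10 had 2 in CLBL-1 8.0 and 3 in CLBL-1, and HDAC3, the deacetylase of the NCOR complex, had 1 in each. Sirtuins had 24 regions in CLBL-1 8.0 and 13 in CLBL-1. Among these, SIRT6 had 4 in both lines, SIRT2 had 4 in CLBL-1 8.0 and 3 in CLBL-1, and the mitochondrial SIRT3 had 4 in CLBL-1 8.0 and 2 in CLBL-1.

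**Figure D3:**
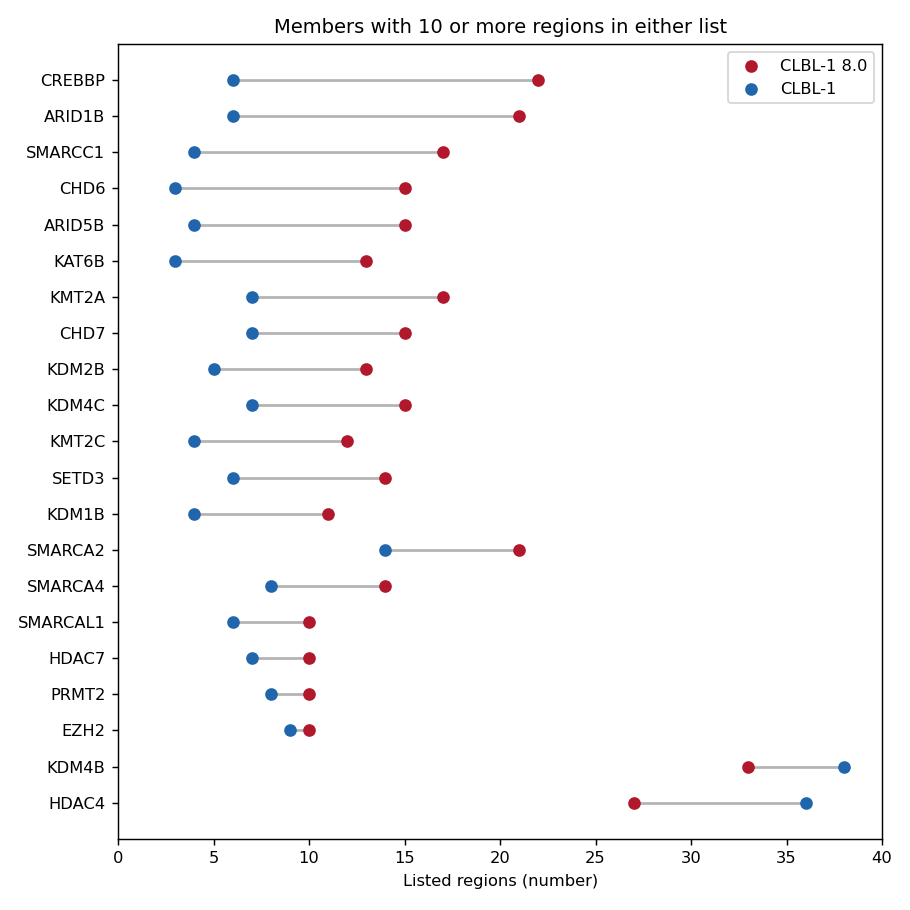
Points give the number of listed regions of the 21 members with 10 or more regions in either list, red for CLBL-1 8.0 and blue for CLBL-1, ordered by the difference. CREBBP, with 22 regions in CLBL-1 8.0 and 6 in CLBL-1, heads the order, and HDAC4, with 27 in CLBL-1 8.0 and 36 in CLBL-1, ends it next to KDM4B.

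Among the remodellers, CHD genes had 69 regions in CLBL-1 8.0 and 31 in CLBL-1, and all 31 were met. CHD6 had 15 in CLBL-1 8.0 and 3 in CLBL-1, a ratio of 5 beside 1.49 in its surroundings. Of the 15, 12 stood in CLBL-1 8.0 alone. CHD7, the gene of CHARGE syndrome in humans, had 15 in CLBL-1 8.0 and 7 in CLBL-1, with coding exons holding 8 in CLBL-1 8.0 and 3 in CLBL-1. CHD3, a core ATPase of the NuRD complex, had 8 in CLBL-1 8.0 and 6 in CLBL-1, and CHD5, a relative expressed mainly in neurons, had 9 in CLBL-1 8.0 and 5 in CLBL-1.

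SMARC genes had 83 regions in CLBL-1 8.0, against 47 in CLBL-1. The alternative SWI/SNF ATPases SMARCA2 and SMARCA4 had many in both lines, SMARCA2 with 21 in CLBL-1 8.0 and 14 in CLBL-1, and SMARCA4 with 14 in CLBL-1 8.0, against 8 in CLBL-1. The 14 SMARCA2 regions of CLBL-1 were all in introns and all met. SMARCC1, a core scaffold subunit, had 17 in CLBL-1 8.0 and 4 in CLBL-1, a ratio of 4.25 beside 2.12. Its paralog SMARCC2 had 5 in CLBL-1 8.0 and 4 in CLBL-1. SMARCAD1 was the single member listed in CLBL-1 and not in CLBL-1 8.0, or 0.99% (0.175 to 5.4) of members, where the share over all genes was 1.53%.

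ARID genes had 76 regions in CLBL-1 8.0 and 28 in CLBL-1, and their share outside islands and shores was 76.3% in CLBL-1 8.0 and 35.7% in CLBL-1. ARID1B, a SWI/SNF subunit, had 21 regions in CLBL-1 8.0 and 6 in CLBL-1, a ratio of 3.5 beside 1.93. Of the 15 in CLBL-1 8.0 alone, 14 lay outside islands and shores. A surplus of at least 15 was seen in 114 genes with a symbol, or 0.799%. Its alternative subunit ARID1A had 7 in CLBL-1 8.0 and 2 in CLBL-1. ARID5B, a DNA-binding protein, had 15 in CLBL-1 8.0 and 4 in CLBL-1, a ratio of 3.75 where the surrounding stretch had 3.35. ARID3B had 9 in CLBL-1 8.0 and 5 in CLBL-1, and ARID5A had 6 in CLBL-1 8.0 and 3 in CLBL-1. ARID3A had 4 in each line, and ARID3C had 1 in CLBL-1 8.0, against 2 in CLBL-1.

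Of the 83 members with a CLBL-1 region, 47 had a ratio above that of the 1 Mb on either side. No such count for other genes stands beside it, so it is not read as a trait of the members. The median ratio was 1.80 for the genes and 1.72 for the surroundings, so neighbouring DNA also had more regions in CLBL-1 8.0. The 18 members with regions in CLBL-1 8.0 only have no ratio. They are left out of the 83 and of the median for the genes, which lowers the genes' side of this comparison.

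**Figure D4:**
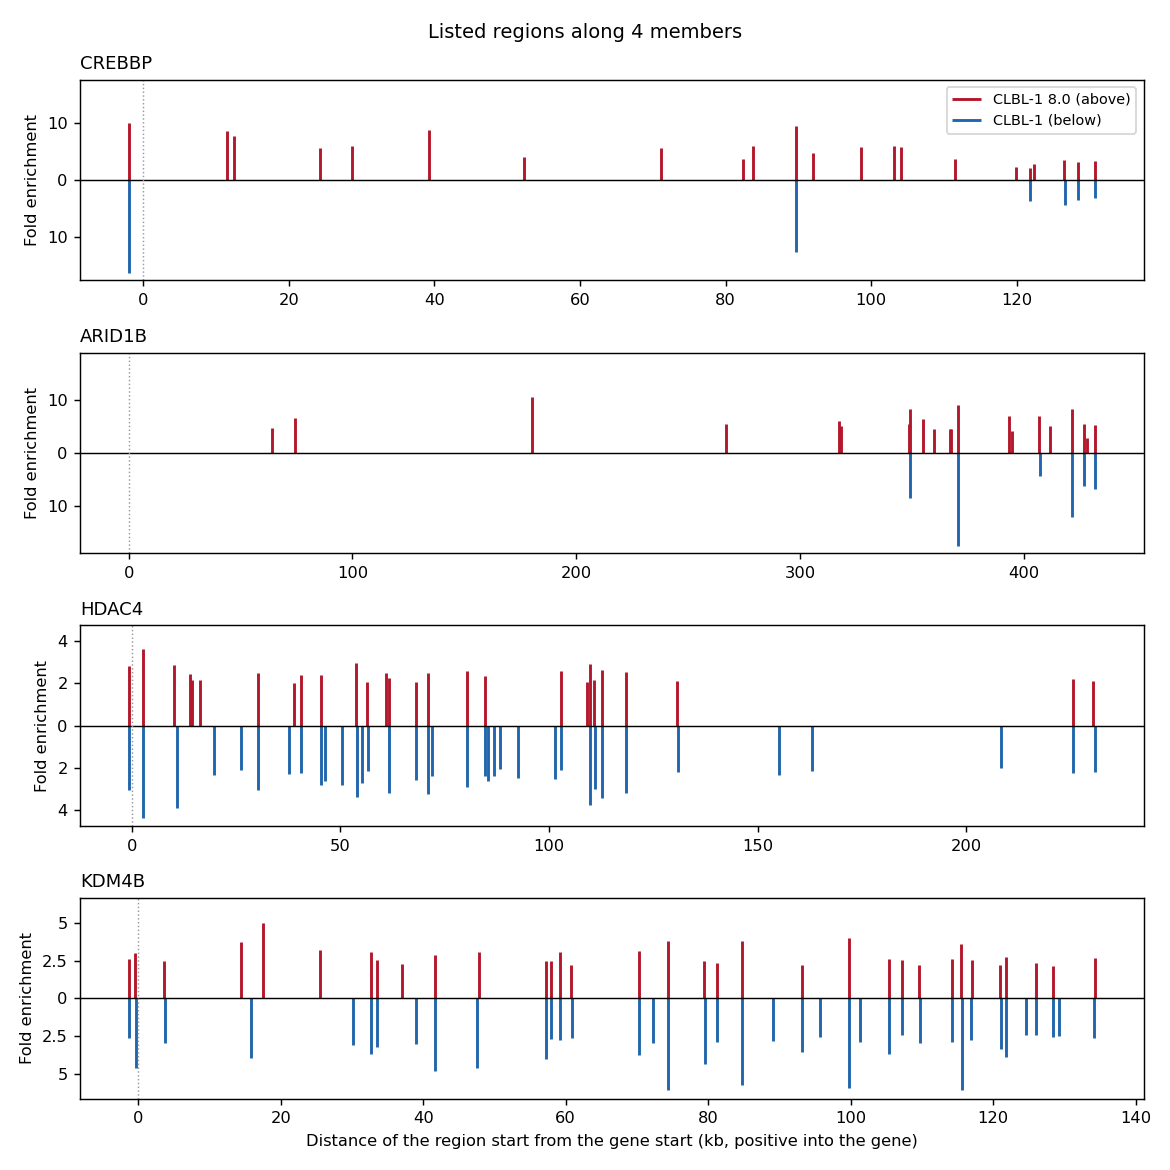
Each vertical line is a listed region of CREBBP, ARID1B, HDAC4 or KDM4B, placed by the distance of its start from the gene start in kb, with its fold enrichment above the axis for CLBL-1 8.0 and below it for CLBL-1. CREBBP and ARID1B have lines across the gene that only CLBL-1 8.0 lists, and HDAC4 and KDM4B have dense lines of low fold in both lines.

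A minority of the members had a listed promoter. There was a promoter region for 35 members, or 34.7% (26.1 to 44.3), in CLBL-1 8.0, where 46.8% of all genes with a symbol had one. The number in CLBL-1 was 24 members, or 23.8% (16.5 to 32.9), beside 37.8% of all genes. The higher number in CLBL-1 8.0 was lost with lists of equal length, at 23 members in CLBL-1 8.0 and 24 in CLBL-1. Keeping regions with a fold of at least 5.28, the median over both lists, left 18 members in each line. Either limit takes more regions from the CLBL-1 8.0 list by construction. Both lines listed a promoter region for 20 of the 39 members with one in either line, and for 4910 of 7102 such other genes. Promoter regions numbered 37 in CLBL-1 8.0 and 25 in CLBL-1, a ratio of 1.48 against 1.25 for other genes. In islands there were 5 in each line, in shores 22 in CLBL-1 8.0 and 16 in CLBL-1, and in neither 10 in CLBL-1 8.0 and 4 in CLBL-1.

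Promoters listed in both lines were those of ARID3C, CHD7, CREBBP, HDAC3, HDAC4, HDAC7, HDAC10, HDAC11, KAT2A, KDM2A, KDM4B, KDM4C, KDM5B, PRMT8, SETD3, SETD7, SIRT3, SIRT6, SMARCA1 and SMARCD1. All 4 KDM promoters listed in either line were shared. These regions had a median length of 663 bp in CLBL-1 8.0 and 692 bp in CLBL-1. The start flag was on 8 of 22 in CLBL-1 8.0 and on 7 of 21 in CLBL-1.

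Among the members, KDM2A and SETD3 led the promoter folds in both lists. The highest in CLBL-1 8.0 were KDM2A at 17.2 (chromosome 18, 50294045 to 50294721, an island over the gene start) and SETD3 at 15.2 (chromosome 8, 67902140 to 67902573, an island). They were followed by HDAC3 at 12.6, KDM4C at 10.2 and CREBBP at 9.95. In CLBL-1 the highest were SETD3 at 20.9, KDM2A at 16.9, KDM4C at 16.6, CREBBP at 16.3 and SMARCC2 at 14.9, with HDAC3 at 14.2 next. The CREBBP promoter region was a shore on chromosome 6, from 37408221 to 37408843 in CLBL-1 8.0 and from 37408279 to 37408913 in CLBL-1. The member with the largest surplus of regions thus had a promoter region of high rank among member promoters in both lists. Promoter regions of other genes reached folds of 32.1 in CLBL-1 8.0 and 24.6 in CLBL-1.

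A promoter region in CLBL-1 8.0 and none in CLBL-1 was found for 15 members, or 14.9% (9.21 to 23.1), where the share over all genes was 12.3%. They were ARID3B, ARID5A, CHD5, EED, EP300, HDAC1, KMT2A, KMT5B, PRMT3, PRMT6, SETD9, SETDB1, SIRT2, SIRT7 and SMARCA5. All 15 regions, or 100% (79.6 to 100), met no CLBL-1 region at all. Among other genes with such a promoter, 1440 of 1736, or 82.9% (81.1 to 84.6), met none, a share within the interval of the members. These regions were short, 258 to 545 bp with a median of 268 bp, and began a median of 2141 bp upstream of the gene start (187 to 3107). None carried the start flag and none lay in an island, with 9 in shores and 6 in neither. Of such promoter regions of other genes, 17.9% carried the start flag, 6.47% lay in islands and 51.5% in shores. The folds of the 15 member regions ran from 2.44 to 7.28 with a median of 3.80. The median was 5.06 over the whole list, and also 5.06 over such promoter regions of other genes. Of these 15 genes, 10 had another region in CLBL-1.

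Among the genes described above, the EP300 region lay on chromosome 10 from 24158849 to 24159111, began 2141 bp upstream in a shore and had a fold of 4.43. For KMT2A it lay on chromosome 5 from 15303661 to 15304064, 836 bp upstream in a shore, with a fold of 5.70. EED had its region on chromosome 21 from 13290785 to 13291049, 1274 bp upstream in a shore, with a fold of 3.48. All 3 regions lay off the gene start. Those of EP300 and EED were shorter than the median of the 15, 268 bp, and that of KMT2A was longer.

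The HDAC1 region lay on chromosome 2 from 68938789 to 68939047, 2316 bp upstream, with a fold of 3.80. For SMARCA5, the ISWI ATPase, it lay on chromosome 15 from 42730422 to 42730706, 725 bp upstream in a shore, also with a fold of 3.80. The highest folds of the 15 were PRMT3 at 7.28 (chromosome 21, 42404349 to 42404894) and ARID3B at 6.33 (chromosome 30, 37637566 to 37637920). SETDB1 followed KMT2A at 5.67 and SETD9 had 5.06. The lowest were SIRT7 at 2.44 and CHD5 at 2.60, and the CHD5 region began nearest to its gene, 187 bp upstream.

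The opposite, a promoter region in CLBL-1 and none in CLBL-1 8.0, was found for 4 members, or 3.96% (1.55 to 9.74), beside 3.22% over all genes. With lists of equal length, the members with a promoter region in 1 line only were 7 in CLBL-1 8.0, against 8 in CLBL-1. With folds of at least 5.28 they were 4 in each line. Either limit takes more regions from the CLBL-1 8.0 list by construction. Of the 4 in the full lists, ARID3A and SMARCAD1 were those where no CLBL-1 8.0 region lay at the place. The SMARCAD1 region, of a helicase-like remodeller, lay on chromosome 32 from 17088254 to 17088680 in a shore, 1260 bp upstream, with a fold of 8.82. For ARID3A, a DNA-binding protein known from B cells, it lay on chromosome 20 from 57746648 to 57747138 in an island, 11 bp upstream, with a fold of 2.20. At HDAC2 the CLBL-1 promoter region (chromosome 12, 70083084 to 70083493) met a CLBL-1 8.0 region from 70083036 to 70083448 that is listed as the 5' untranslated part of HDAC2. At SMARCC2 it (chromosome 10, 503813 to 504683) met a CLBL-1 8.0 region from 503863 to 504832 that is listed under a neighbouring tRNA gene. At HDAC2 and SMARCC2, captured DNA was therefore listed at the same place in both lines under another label.

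**Figure D5:**
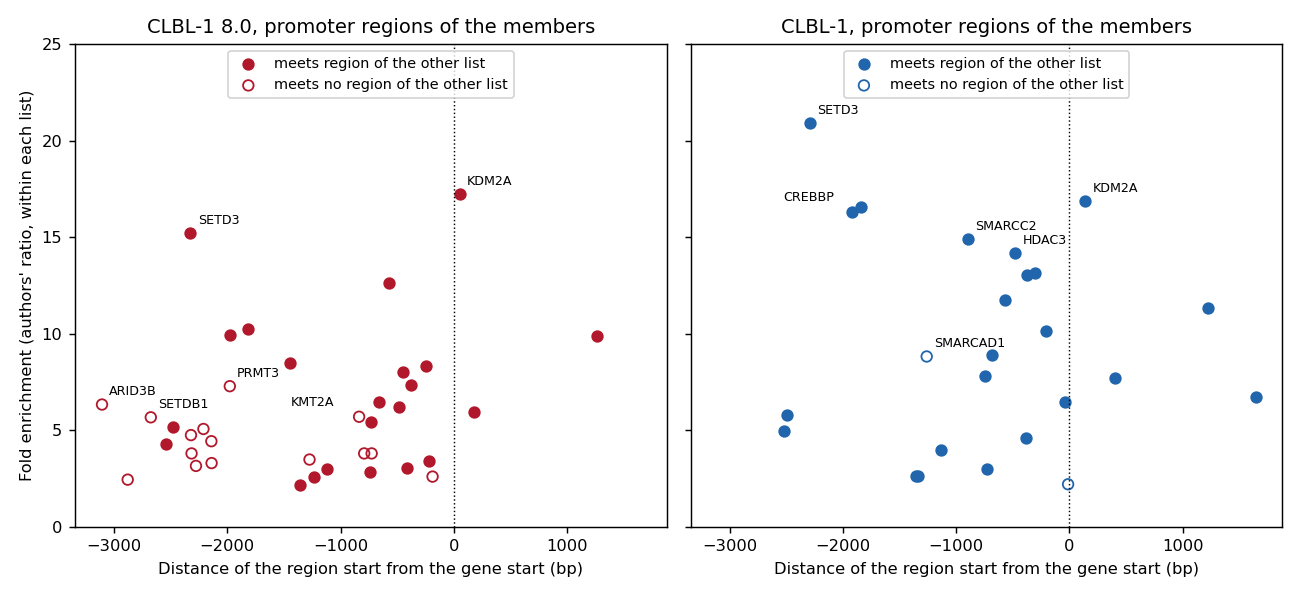
Each point is a promoter region of a member, with the distance of its start from the gene start in bp on the x axis and the authors' fold enrichment on the y axis, in CLBL-1 8.0 (left) and CLBL-1 (right). In CLBL-1 8.0 the 15 regions that meet no region of the other list have folds of 2.44 to 7.28, and the shared ones reach 17.2.

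Any region in CLBL-1 8.0 and none in CLBL-1 was the state of 18 members, or 17.8% (11.6 to 26.4), beside 18.7% of all genes. They were ARID2, CHD1, EED, HDAC9, KAT7, KAT14, KDM1A, KDM3B, KDM4A, KDM6A, PRMT3, PRMT9, SETD4, SETD9, SETDB2, SIRT4, SIRT7 and SMARCA5. Each had 1 to 6 regions, 53 in all, and 45 of these lay outside islands and shores. Introns held 33 of the 53. The highest fold was 8.55, in PRMT3. KDM4A, a demethylase related to KDM4B, had 6 regions in CLBL-1 8.0 with folds up to 6.95.

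Genes that work with the members were counted in the same way from a list of 90 readers, scaffold subunits and further enzymes, of which 83 had a region. They had 559 regions in CLBL-1 8.0 and 327 in CLBL-1, a ratio of 1.71, where genes other than the members had 1.55. More regions were listed in CLBL-1 8.0 for 64 of the 83, or 77.1%, and fewer for 10, or 12.05%, beside 65.2% and 9.14% over all genes. The other 9 had equal numbers. A promoter region was listed for 32 of them, or 38.6%, in CLBL-1 8.0 and for 20, or 24.1%, in CLBL-1, beside 46.8% of all genes in CLBL-1 8.0 and 37.8% in CLBL-1. All 20 had one in both lines. JARID2, a PRC2 accessory protein, had 33 regions in CLBL-1 8.0 and 13 in CLBL-1, and TRRAP, a scaffold of acetyltransferase complexes, had 18 in CLBL-1 8.0 and 3 in CLBL-1. DOT1L, a histone H3 methyltransferase, had 17 in CLBL-1 8.0 and 20 in CLBL-1. These 3 were named after their values were seen.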

How the data were processed

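MethylCap-seq was done on genomic DNA of both lines, with 1 low salt and 1 high salt eluate per line, read as 150 bp pairs on an Illumina NovaSeq, per the labels' protocols. BWA, MACS2 and the CanFam3.1 build are named per the submitters' processing notes, without a version, and their settings are not stated. The deposited tables hold 1 region list per line, and the fold enrichment in them is a ratio that the authors computed for each region, per the file headers, over a background not stated. Whether the eluates were pooled before calling, and whether positions count from 0 or from 1, is not stated. The distance to the gene start, from the region start, and the location and CpG flags are also the authors' columns, per the file headers. Read depth is unknown.

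Members were matched by symbol. In 6 CLBL-1 8.0 rows and 2 CLBL-1 rows the cells were displaced, and these rows were given no gene. Promoter means the authors' flag, and gene body means untranslated parts, coding exons and introns without it. A region flagged island and shore counted as island. Regions were shared at an overlap of at least 1 bp, by a function checked against bedtools on simulated regions. Shares carry Wilson 95% intervals (statsmodels 0.14.6). Intervals on shares of regions take each region as independent, although many lie in the same gene, so they can be too narrow. No p-value is given, because each line and eluate has 1 library. Other genes means all other genes with a symbol, and names were checked in the dog RefSeq annotation on UU_Cfam_GSD_1.0. Python 3.11.15, numpy 2.4.6, pandas 2.3.3 and matplotlib 3.10.9 were used.

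Genes named are those with a promoter region in 1 list only, the 3 with the most regions per family, the 5 largest surpluses and deficits, the 5 highest promoter folds per list, and 10 lymphoma genes, 54 in all. The complete lists of promoters in both lines and of genes in 1 line only name further members. The members and gene lists were chosen with earlier results of these data known. The comparisons with the surrounding 1 Mb and without the top gene of a family, or without HDAC4 for islands, were added after seeing the data. Alternatives tried were a fold limit, lists of equal length, a start window, stricter overlap and left-out genes or chromosomes.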

Additional observations from a re-analysis of the deposited data

How the results depend on the processing

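Values that moved by over 1.5 times (counts) or out of the 95% interval (shares) are given here, and their counterparts where a direction was lost. Leaving out chromosomes 6, 12, 14 and 27, taking promoters by position and asking for 50% overlap moved none of the values computed under them. No paired analysis was possible because each line and eluate has 1 library and the tables hold 1 list per line. Keeping regions at or above the pooled median fold, 5.28, left 268 member regions in CLBL-1 8.0 and 170 in CLBL-1, 230 gene body regions in CLBL-1 8.0 and 137 in CLBL-1, and 18 promoter genes in each line. Shares met by the other list were then 44.4% in CLBL-1 8.0 and 70.6% in CLBL-1, and shares outside islands and shores 79.1% in CLBL-1 8.0 and 60.6% in CLBL-1. Promoters in 1 line only were then 4 in CLBL-1 8.0 and 4 in CLBL-1, so neither promoter difference kept its direction, and genes with any region in CLBL-1 only numbered 5.

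Cutting the CLBL-1 8.0 list to the length of the CLBL-1 list, by fold, left 384 member regions, 333 gene body regions and 23 promoter genes in CLBL-1 8.0. The CLBL-1 list is not cut here and keeps its 24 promoter genes, so this direction turned. The shared shares were then 44.0% in CLBL-1 8.0 and 48.2% in CLBL-1, and the share outside islands and shores 81.8% in CLBL-1 8.0. Promoters in 1 line only numbered 7 in CLBL-1 8.0 and 8 in CLBL-1, so their direction was lost, and any region in CLBL-1 only was found for 8 genes. Both limits remove more regions from the CLBL-1 8.0 list by construction.

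Without HDAC4, KDM4B, CREBBP and ARID1B, chosen after seeing the data, 73.3% in CLBL-1 8.0 and 55.3% in CLBL-1 lay outside islands and shores, and 93.8% of CLBL-1 regions were met. Without HDAC4, also chosen then, the island ratio of members was 1.15 against 0.958 with it. Without ARID3, ARID5, SMARCAL1, SMARCAD1 and CHD1L, promoters in CLBL-1 only numbered 2 and genes with any region there only 0. Counting starts within 1000 bp gave 4 promoters in CLBL-1 8.0 alone and 1 in CLBL-1 alone, and asking that none meet the other list gave 2 in CLBL-1 only. Unknown depth and the lack of replicates limit all of these.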
